A study of Mus musculus with 21 samples.

Results

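Tumour necrosis factor (TNF) was added to mouse macrophages that were also given interleukin 4 (IL-4) and interleukin 13 (IL-13), and RNA was sequenced after 24 h. IL_TNF_24h, the cells given all 3 cytokines, was compared with IL_24h, the cells given IL-4 and IL-13 alone, over every gene that passed a filter on low counts. These were 6 of the 21 libraries of the study, 3 in each group. Both groups were bone-marrow-derived macrophages of wild-type C57BL/6 mice aged 8 to 10 weeks, grown from bone marrow with the growth factor M-CSF, and each cytokine was used at 10 ng/ml. The same addition at 6 h (IL_TNF_6h against IL_6h), and TNF alone at 24 h against untreated cells at 0 h (TNF_24h against Ctrl_0h), shared no library with the 24 h comparison and are used beside it. Nothing in the labels says that replicates are separate cultures or mice, so each p measures only how far libraries of a group spread, which may be technical. That spread was estimated over all 21 libraries, unless a library was left out or a fit of the compared groups alone is named.

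IL-4 and IL-13 act through receptor chains that activate the transcription factor STAT6, and in macrophages they switch on a set of genes known as alternative activation, among them Retnla, Chil3, Arg1 and Mrc1. TNF acts through its receptors on the transcription factor NF-kB, which switches on inflammatory mediators and, with them, its own inhibitors. Macrophages that receive TNF can also release type I interferon, which acts back on the cells and raises a wide set of interferon-stimulated genes. The comparison therefore asks what TNF does to macrophages that are also given IL-4 and IL-13.

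The 6 libraries held between 36446271 and 48654300 counts in genes, with a count in between 17927 and 18798 genes. Levels are CPM, the counts of a gene as a share of its library total after trimmed mean normalisation (TMM), and library values are always given in the order of replicates 1, 2 and 3. CPM is not divided by gene length, so levels of different genes are not compared. Changes are log2 fold changes ± standard error (SE), and a gene was called raised or lowered at an adjusted p below 0.05 in the quasi-likelihood F test of edgeR. The SE was worked back from that test and is approximate.

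Replicate 1 of IL_TNF_24h stood apart from its group. The chi-square of the counts per degree of freedom was 96.8 and 98.5 between it and replicates 2 and 3, against 10.3 between those, and it lay between 7.52 and 23.7 within IL_24h. Other groups used beside these also held a library apart, at 155 and 87.5 for replicate 2 of IL_6h, 109 and 89.2 for replicate 3 of IL_TNF_6h, and 86 and 84.2 for replicate 2 of Ctrl_0h, which had a count in 27761 genes. Within TNF_24h the values were 29.1, 40.4 and 107. In replicate 1, 697 genes were at least 2-fold above the mean of replicates 2 and 3 and 1204 genes were at least 2-fold below it. Of genes with at least 10 CPM in the higher of those values, the 5 with the largest excess were Slfn1, Ms4a4c, Ifit2, Iigp1 and Ifit3, all known as genes that interferon raises. The 5 with the largest deficit were Rrm2, Plk1, Pclaf, Ankle1 and Ube2c, of which Rrm2, Plk1, Pclaf and Ube2c are known to act in DNA synthesis or cell division. Results that this library decides are given with and without it. Slfn1, for example, had 19.6, 0.794 and 0.992 CPM in IL_TNF_24h and 0.253, 0.141 and 0.272 CPM in IL_24h, and Rrm2, a subunit of ribonucleotide reductase, had 2.17, 41.4 and 39.1 CPM in IL_TNF_24h and 44.8, 48.8 and 44.8 CPM in IL_24h.

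TNF raised 940 genes and lowered 791 of 15581 tested, which is 11.1% of them, 6.03% raised and 5.08% lowered. The raised genes reached further: 263 rose at least 4-fold and 64 fell at least 4-fold, and 157 rose at least 8-fold and 21 fell at least 8-fold. The median log2 fold change over all genes tested was 0.0011. The libraries of the groups did not overlap in 1704 of the 1731 called genes, and in 36.4% of all genes tested. Without replicate 1 of IL_TNF_24h, 743 genes were raised and 648 lowered of 16514 tested, which is 8.42% of them, 4.50% raised and 3.92% lowered. Of the genes called with all libraries, 694 were also raised and 552 also lowered without it, 246 raised and 239 lowered genes lost their call, and 0 turned to the opposite call. The lowered count was 511 without replicate 1 of IL_24h and 508 without its replicate 2.

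**Figure D1:**
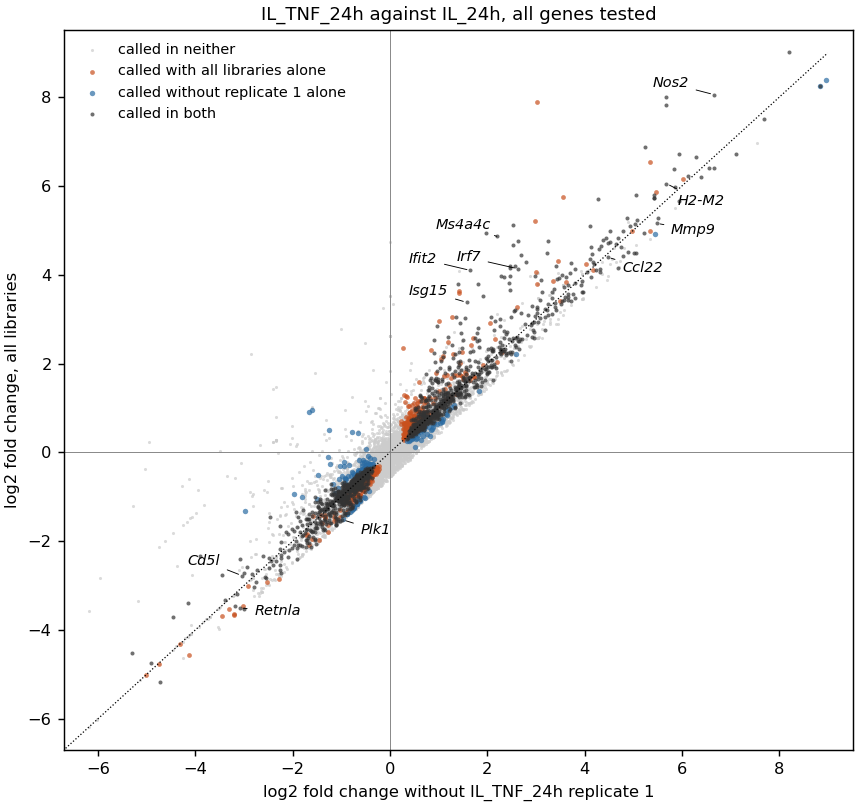
Each point is a gene tested in both fits, with its log2 fold change of IL_TNF_24h against IL_24h from all libraries (vertical axis) and without replicate 1 of IL_TNF_24h (horizontal axis). The dotted line marks equal values. Nos2 (8.06 and 6.66), Ms4a4c (4.87 and 2.20) and Ifit2 (4.10 and 1.66) lie above the line, while Ccl22 (4.40 and 4.47) and H2-M2 (6.06 and 5.68) lie near it.

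Among the secreted and surface products of alternative activation, TNF lowered some and raised others at 24 h. Of 37 genes tested in the alternative activation list, 12 rose (32.4%) and 9 fell (24.3%), and the median log2 fold change was -0.04. The counts were the same without replicate 1. Of all genes tested, 6.03% rose and 5.08% fell, or 4.50% and 3.92% without replicate 1. The counts of the lists that follow stand beside these shares. The fallen members included Retnla, Ear2, Fn1, Clec10a and Mrc1, and the raised members included Ccl22, Ccl17, Ccl24, Cish and Pdcd1lg2.

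Retnla encodes a secreted resistin-like protein that IL-4 strongly induces in mouse macrophages (ENSMUSG00000061100, chr16:48842609-48844461, GRCm38.p6). It had 72.9, 315 and 273 CPM in IL_TNF_24h, against 2514, 2664 and 2342 CPM in IL_24h. All 3 libraries with TNF lay below all 3 without it, and replicate 1 was the lowest. The log2 fold change was -3.51 ± 0.41 (adjusted p = 2.58e-05), the largest fall among the genes named by rule, and -3.09 ± 0.26 without replicate 1. Ear2, a ribonuclease of the eosinophil-associated family, had 4.36, 17.4 and 15.4 CPM in IL_TNF_24h against 77.1, 79.0 and 80.04 CPM in IL_24h, a change of -2.66 ± 0.46 (adjusted p = 0.000633), which the Wald test of DESeq2 did not call (adjusted p = 0.068). Mrc1, the mannose receptor, had 344, 297 and 282 CPM in IL_TNF_24h against 570, 619 and 529 CPM in IL_24h. It fell by 0.90 on the log2 scale (SE 0.15, adjusted p = 0.000345), and here replicate 1 was the highest of the libraries with TNF. Clec10a, a galactose-binding lectin receptor, had 19.8, 20.2 and 18.0 CPM in IL_TNF_24h against 43.2, 51.2 and 47.3 CPM in IL_24h, with a change of -1.29 ± 0.12 (adjusted p = 4.13e-07). Fn1, which encodes fibronectin, had 19.98, 75.4 and 73.8 CPM in IL_TNF_24h and 268, 244 and 228 CPM in IL_24h (-2.13 ± 0.40, adjusted p = 0.000932).

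Arg1 and Chil3, which mark alternative activation as often as Retnla does, did not pass the test at 24 h. Arg1, the enzyme that turns arginine into ornithine and urea (ENSMUSG00000019987, chr10:24915207-24927470), had 22.7, 40.3 and 48.3 CPM in IL_TNF_24h against 47.8, 57.6 and 60.1 CPM in IL_24h. The groups overlapped, and the log2 fold change was -0.57 ± 0.22 (adjusted p = 0.122), or -0.31 ± 0.19 without replicate 1 of IL_TNF_24h. It passed without replicate 3 of IL_TNF_24h (-0.81, adjusted p = 0.044) and with no filter on low counts (-0.58, adjusted p = 0.0067). Chil3, a chitinase-like secreted protein, had 97.2, 168 and 166 CPM in IL_TNF_24h against 250, 247 and 238 CPM in IL_24h, groups that do not overlap, with a change of -0.77 ± 0.26 (adjusted p = 0.0631). It was called by the Wald test of DESeq2 (adjusted p = 0.0016), with no filter on low counts (adjusted p = 3.77e-05), in a fit of these groups alone (adjusted p = 0.036) and without replicate 2 of Ctrl_0h (adjusted p = 0.0079).

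The raised members of the list were led by chemokines that draw T helper 2 cells and eosinophils. Ccl22 (ENSMUSG00000031779, chr8:94745684-94751388) had 729, 889 and 821 CPM in IL_TNF_24h against 39.5, 39.0 and 37.1 CPM in IL_24h, a change of 4.40 ± 0.21 (adjusted p = 2.93e-11). Ccl17, close to it on chromosome 8, had 37.0, 85.0 and 81.8 CPM in IL_TNF_24h against 6.17, 6.49 and 6.46 CPM in IL_24h (3.41 ± 0.30, adjusted p = 3.21e-07). Ccl24, an eosinophil chemoattractant, had 62.6, 57.1 and 57.5 CPM in IL_TNF_24h against 5.43, 7.83 and 5.76 CPM in IL_24h (3.22 ± 0.30, adjusted p = 2.91e-07). Without replicate 1 the changes were 4.47 for Ccl22, 3.71 for Ccl17 and 3.18 for Ccl24, so these rises were about as large or larger without it. Pdcd1lg2, the checkpoint ligand PD-L2, averaged 53.4 ± 20.8 CPM in IL_TNF_24h and 14.1 ± 0.62 CPM in IL_24h (SD, n = 3 each), a change of 1.92 ± 0.34 (adjusted p = 0.000558). Cish, a feedback inhibitor of cytokine receptors, averaged 25.5 ± 5.62 CPM in IL_TNF_24h and 6.67 ± 0.30 CPM in IL_24h (1.93 ± 0.38, adjusted p = 0.00166).

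**Figure D2:**
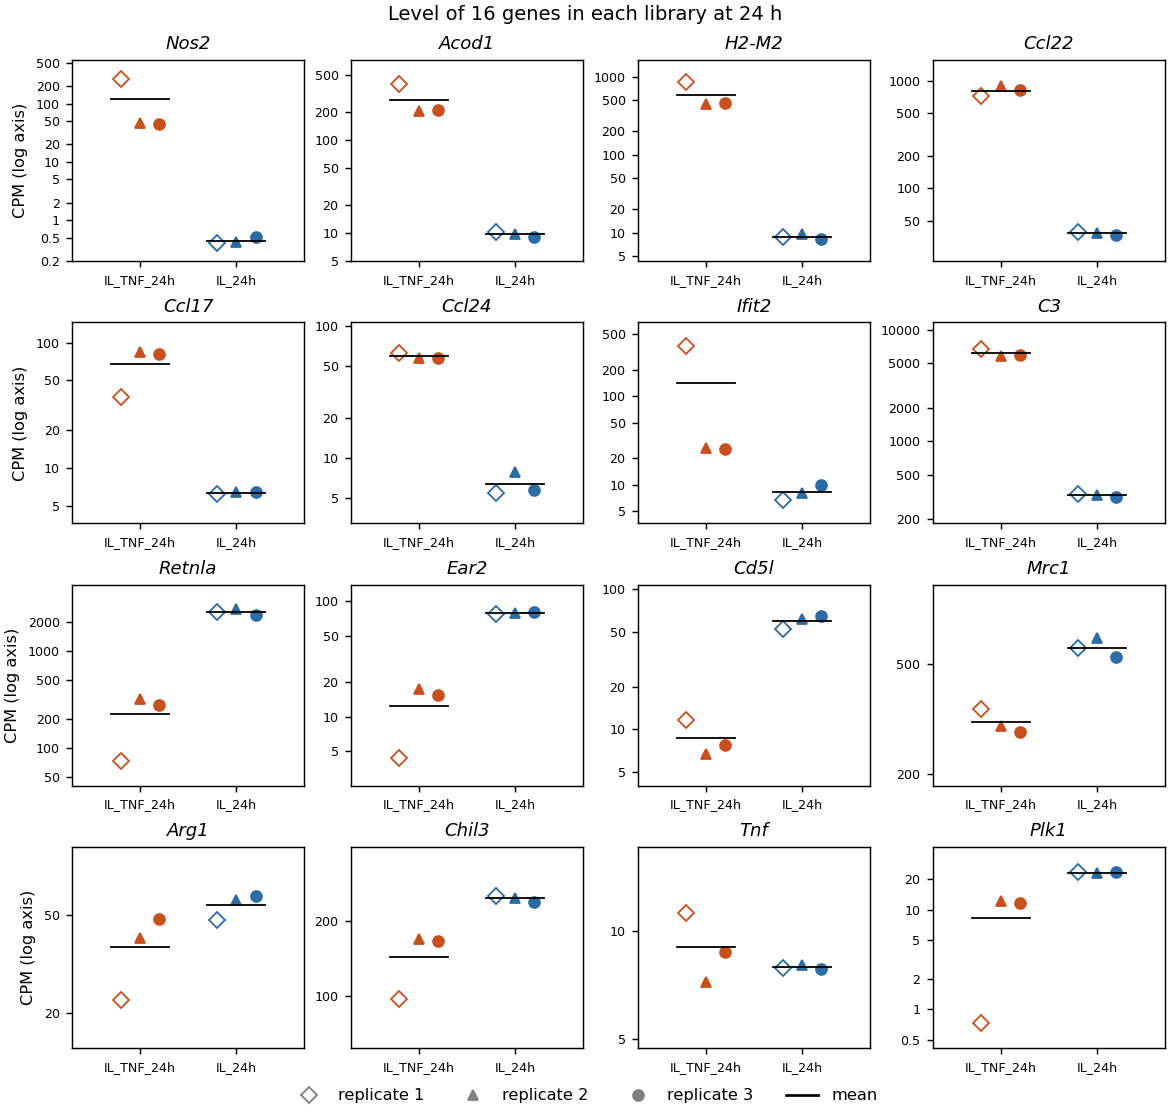
CPM (log axis) of 16 genes in each library, IL_TNF_24h in orange and IL_24h in blue. Open diamonds are replicate 1, triangles replicate 2, filled circles replicate 3, and lines the group means. Nos2, Ifit2, Retnla and Plk1 show replicate 1 of IL_TNF_24h far from replicates 2 and 3, whereas Ccl24, C3 and Mrc1 show it near them.

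Receptor chains for IL-4 and IL-13 were among the raised genes. Of 11 genes tested for IL-4 and IL-13 receptor chains and the JAK-STAT6 components, 3 rose and 1 fell. Il13ra1, the chain that pairs with the IL-4 receptor to bind IL-13, averaged 7.79 ± 2.35 CPM in IL_TNF_24h and 1.52 ± 0.25 CPM in IL_24h (SD, n = 3 each), a change of 2.35 ± 0.25 (adjusted p = 1.97e-06). Il2rg, the common gamma chain, changed by 1.16 ± 0.13 (adjusted p = 4.98e-06) and Jak2, a kinase of the JAK family, by 1.48 ± 0.16 (adjusted p = 1.67e-06). Il4ra, the IL-4 receptor chain itself, had 81.0, 74.5 and 76.0 CPM in IL_TNF_24h against 62.0, 60.9 and 61.2 CPM in IL_24h, groups that do not overlap. Its change of 0.33 ± 0.15 was not called (adjusted p = 0.191), but a fit of these groups alone called it (adjusted p = 0.0087). The gene that fell was Pparg, a lipid-sensing nuclear receptor that IL-4 induces, with 98.7, 71.3 and 74.0 CPM in IL_TNF_24h against 125, 129 and 125 CPM in IL_24h (-0.63 ± 0.13, adjusted p = 0.003).

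NF-kB targets and inflammatory mediators rose widely. Of 37 tested, 25 rose and 2 fell, with a median log2 fold change of 1.49, and without replicate 1 the counts were 23 and 2. Nos2, the inducible nitric oxide synthase that competes with arginase for arginine (ENSMUSG00000020826, chr11:78920787-78960226), had the largest rise among the genes named by rule, with 269, 46.2 and 44.6 CPM in IL_TNF_24h against 0.409, 0.422 and 0.504 CPM in IL_24h. All libraries with TNF were far above those without, and replicate 1 was the highest. The log2 fold change was 8.06 ± 0.78 (adjusted p = 4.56e-07), and 6.66 ± 0.50 without replicate 1. Acod1, the enzyme that makes itaconate (ENSMUSG00000022126, chr14:103047012-103056573), had 404, 208 and 214 CPM in IL_TNF_24h against 10.2, 9.75 and 9.02 CPM in IL_24h (4.83 ± 0.21, adjusted p = 2.66e-11). Mmp14, a membrane-bound matrix metalloproteinase, had 134, 80.2 and 72.7 CPM in IL_TNF_24h against 1.89, 2.09 and 1.40 CPM in IL_24h (5.74 ± 0.50, adjusted p = 1.19e-07). Vcam1, an adhesion molecule for leukocytes, had 8.92, 4.28 and 4.40 CPM in IL_TNF_24h and at most 0.281 CPM in IL_24h (5.29 ± 0.54, adjusted p = 1.05e-06). Mmp9, a gelatinase, had 44.0, 107 and 109 CPM in IL_TNF_24h against 3.17, 1.73 and 2.31 CPM in IL_24h (5.16 ± 0.40, adjusted p = 2.34e-08), with replicate 1 the lowest of its group. Fpr2, a formyl peptide receptor, had 20 counts in IL_TNF_24h and 0 counts in IL_24h, which is at least 8.11-fold higher when the group total is set to a floor of 3 counts. In the deposited table pairs of counts are more frequent than single counts, and if each pair is 1 fragment the bound is 4.05-fold and counting intervals are wider than those given.

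Of the cytokines at the head of the inflammatory response, Tnf, Il1b and Il6 were not called at 24 h and Il1a was called on few counts. Tnf itself had 11.2, 7.22 and 8.73 CPM in IL_TNF_24h against 7.89, 8.06 and 7.82 CPM in IL_24h (0.19 ± 0.15, adjusted p = 0.585). Il1b had at most 0.871 CPM in IL_TNF_24h and at most 0.584 CPM in IL_24h (0.17 ± 0.50, adjusted p = 0.937), and its sign turned without replicate 3 of either group (-0.90 without replicate 3 of IL_TNF_24h, -0.065 without replicate 3 of IL_24h). Il1a had 28 counts in IL_TNF_24h and 2 counts in IL_24h, both in replicate 1, a ratio of 17.0 with a 95% counting interval of 4.29 to 147.5. Its change of 3.83 ± 1.21 (adjusted p = 0.0468) lost its call without any 1 of the 6 libraries (adjusted p between 0.0501 and 0.20) and with a block on the replicate number (adjusted p = 0.060). Il6 had 14 counts in IL_TNF_24h and 0 in IL_24h, at least 5.68-fold higher against the same floor, or 2.84-fold with pairs. It was not called (adjusted p = 0.0631), but was by the Wald test of DESeq2 (adjusted p = 0.019), with no filter (adjusted p = 0.014) and without replicate 2 of Ctrl_0h (adjusted p = 0.040).

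Some inhibitors that limit NF-kB rose, among them Tnfaip3 and Nfkbia. Of 27 signalling feedback inhibitors tested, 9 rose (33.3%), 1 fell (3.70%) and 17 were not called, against 6.03% raised and 5.08% lowered of all genes. There were 9 raised and 3 lowered without replicate 1, and 0 lowered without any 1 of the other 5 libraries. Tnfaip3, the ubiquitin-editing enzyme A20, had 115, 106 and 102 CPM in IL_TNF_24h against 28.6, 24.2 and 24.8 CPM in IL_24h (2.06 ± 0.15, adjusted p = 1.36e-08). Nfkbia, which holds NF-kB in the cytoplasm, had 128, 127 and 124 CPM in IL_TNF_24h against 51.7, 49.0 and 46.5 CPM in IL_24h (1.36 ± 0.12, adjusted p = 1.26e-07). Traf1 changed by 2.22 ± 0.12 (adjusted p = 2.53e-10) and Nfkbie by 1.76 ± 0.16 (adjusted p = 2.47e-07). Replicate 1 lay near its group for all 4. Socs3, an inhibitor of JAK kinases, had 8.81, 7.78 and 8.17 CPM in IL_TNF_24h against 3.74, 3.09 and 2.27 CPM in IL_24h (1.44 ± 0.34, adjusted p = 0.00727), and lost its call without replicate 3 of IL_24h (1.27, adjusted p = 0.055). Socs1, which restrains STAT6 signalling, averaged 61.4 ± 8.79 CPM in IL_TNF_24h and 38.1 ± 10.5 CPM in IL_24h (SD, n = 3 each) and was not called (0.69 ± 0.33, adjusted p = 0.238), but was without replicate 2 of Ctrl_0h in the fit (adjusted p = 0.035) and with no filter (adjusted p = 0.00066).

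Of 28 TNF receptors and pathway components tested, 8 rose and 0 fell. They included Birc3 (1.73 ± 0.14, adjusted p = 4.64e-08) and Cflar (0.84 ± 0.17, adjusted p = 0.0024), which protect cells from TNF-induced death, and the adaptor Traf2 (0.83 ± 0.12, adjusted p = 9.73e-05). Without replicate 1 the counts were 7 and 1. Tnfrsf1b, TNF receptor 2, had 1192, 1007 and 998 CPM in IL_TNF_24h against 991, 952 and 939 CPM in IL_24h and was not called (0.15 ± 0.12, adjusted p = 0.562).

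STAT6 and NF-kB are the factors through which the cytokines of this comparison are known to act. Nos2, the largest rise among the genes named by rule, had no promoter sequence to show. The promoters of Retnla, the largest fall among the genes named by rule, and of Ccl22 and Acod1, both higher in every library with TNF, are shown as examples. They are the 250 bases before the annotated start in RefSeq, build GRCm38.p6, 5′ to 3′ on the plus strand. Capitals mark each match, on either strand, to the STAT6 letters (TTC and GAA with any 4 bases between) or the NF-kB letters (GGG and CC with any 5 bases between), overlaps counted, and positions are counted back from the start.
Retnla, chr16:48842359-48842608: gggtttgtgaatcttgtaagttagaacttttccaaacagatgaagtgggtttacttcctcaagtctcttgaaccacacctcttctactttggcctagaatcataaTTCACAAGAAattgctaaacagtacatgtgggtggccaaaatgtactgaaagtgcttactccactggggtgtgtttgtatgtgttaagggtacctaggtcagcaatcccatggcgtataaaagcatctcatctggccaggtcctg
Ccl22, chr8:94745434-94745683: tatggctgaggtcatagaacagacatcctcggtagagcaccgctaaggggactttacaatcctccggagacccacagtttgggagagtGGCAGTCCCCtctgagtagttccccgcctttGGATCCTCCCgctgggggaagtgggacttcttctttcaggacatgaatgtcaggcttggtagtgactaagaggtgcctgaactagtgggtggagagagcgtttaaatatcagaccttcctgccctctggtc
Acod1, chr14:103046762-103047011: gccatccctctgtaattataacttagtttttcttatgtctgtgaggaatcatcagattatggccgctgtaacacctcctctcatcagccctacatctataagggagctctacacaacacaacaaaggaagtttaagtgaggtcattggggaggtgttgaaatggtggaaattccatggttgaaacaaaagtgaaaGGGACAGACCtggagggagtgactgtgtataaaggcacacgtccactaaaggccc

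The Retnla promoter held 1 STAT6 match, TTCACAAGAA, at -145 to -136. The Ccl22 promoter held 2 NF-kB matches on the minus strand, GGCAGTCCCC at -162 to -153 and GGATCCTCCC at -131 to -122, and that of Acod1 held 1, GGGACAGACC, at -55 to -46. Over all 32851 promoters of the table, 5.85% held the STAT6 letters and 45.8% the NF-kB letters, and among the promoters of genes tested the shares were 4.73% and 60.31%. The shares were 6.45% and 59.88% for genes raised at least 2-fold, and 5.36% and 55.71% for genes lowered at least 2-fold. For the 15 raised genes named by rule, 1 of 11 promoters held the STAT6 letters and 8 the NF-kB letters. For the 15 lowered genes, 2 of 14 promoters held the STAT6 letters and 5 the NF-kB letters. A match is a description of letters in this window, and binding was not measured.

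Chemokines split into raised and lowered members. Of 16 inflammatory chemokines tested, 9 rose and 3 fell, or 8 and 3 without replicate 1. Ccl5, which draws T cells and monocytes, had 193, 116 and 109 CPM in IL_TNF_24h against 3.04, 2.72 and 2.13 CPM in IL_24h (5.73 ± 0.27, adjusted p = 3.02e-11). Ccl8 had 30.3, 4.88 and 5.05 CPM in IL_TNF_24h against 0.175, 0.211 and 0.369 CPM in IL_24h (5.71 ± 0.72, adjusted p = 1.51e-05, and 4.28 ± 0.53 without replicate 1). Cxcl10, an interferon-inducible chemokine, had 13.6, 1.495 and 1.91 CPM in IL_TNF_24h against 0.409, 0.398 and 0.116 CPM in IL_24h (4.19 ± 0.71, adjusted p = 0.000393, and 2.48 ± 0.43 without replicate 1). Ccl12, a monocyte chemoattractant, changed by 3.64 with all libraries (adjusted p = 0.00426) and was not called without replicate 1 (1.43, adjusted p = 0.072) or in a fit of these groups alone (adjusted p = 0.074). Ccl2, the main monocyte chemoattractant, moved the other way, with 6.95, 10.3 and 9.07 CPM in IL_TNF_24h against 21.4, 21.4 and 22.4 CPM in IL_24h (-1.31 ± 0.13, adjusted p = 1.02e-06). Ccl4 fell too, with a change of -0.77 ± 0.18 (adjusted p = 0.00746).

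Interferon-stimulated genes rose, and were highest in replicate 1. All 37 tested were called raised, with a median log2 fold change of 2.18. Their groups did not overlap, which also held for 1704 of the 1731 called genes and 36.4% of all genes tested. Without replicate 1, 31 of them were called, and the median over the 37 was 0.98. All 37 were higher in replicate 1 than in both other libraries of IL_TNF_24h, at a median log2 ratio of 1.97, while 38.6% of all genes tested were higher and 40.2% lower there than in both. Other lists shared this order: 32 of 34 lysosome genes (median log2 ratio 0.28) and 20 of 23 Toll-like receptors and adaptors (0.32) were highest in replicate 1. Irf7, the transcription factor that amplifies interferon, had 510, 78.8 and 76.2 CPM in IL_TNF_24h against 11.1, 12.5 and 14.2 CPM in IL_24h. The change was 4.14 ± 0.52 (adjusted p = 1.41e-05), and 2.63 ± 0.18 without replicate 1 (adjusted p = 7.91e-09). Ifit2, which binds foreign RNA, had 372, 26.1 and 25.6 CPM in IL_TNF_24h against 6.70, 8.06 and 9.97 CPM in IL_24h (4.10 ± 0.73, adjusted p = 0.00063, and 1.66 ± 0.28 without replicate 1). Ifi44 changed by 4.29 ± 0.55 (2.81 ± 0.23 without replicate 1) and Oasl1 by 3.97 ± 0.59 (2.28 ± 0.21 without it). Replicates 2 and 3 were also above every IL_24h library for these genes, though far below replicate 1.

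The guanylate-binding proteins and immunity-related GTPases, which attack the vacuoles of intracellular microbes, followed the same order of libraries. Of 18 tested, 14 rose and 0 fell, or 12 and 0 without replicate 1, and all 18 were highest in replicate 1 among the libraries of IL_TNF_24h. Gbp5 had 24.9, 13.9 and 12.6 CPM in IL_TNF_24h and at most 0.273 CPM in IL_24h (6.67 ± 0.55, adjusted p = 1.84e-07). Gbp4 had 10.8, 2.10 and 1.11 CPM in IL_TNF_24h and at most 0.281 CPM in IL_24h (4.77 ± 0.69, and 3.25 ± 0.41 without replicate 1). Iigp1 had 483 counts in IL_TNF_24h and 2 counts in IL_24h, a ratio of 293.7. The 95% interval of its counting error was 80.87 to 2432, with a lower end of 52.33 if each pair of counts is 1 fragment. That interval pools the libraries of a group and leaves out the spread between them. The log2 fold change of Iigp1 was 8.00 with all libraries and 5.68 without replicate 1. Gbp11 had 83 counts in IL_TNF_24h and 0 in IL_24h, at least 33.6-fold higher against the floor, or 16.8-fold with pairs. These bounds hold for the group totals, replicate 1 included. The fitted log2 fold change of Gbp11 was 7.82 with all libraries and 5.67 without replicate 1.

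Most genes of antigen presentation rose for both classes of MHC molecule. Of 22 MHC class I and immunoproteasome genes tested, 17 rose and 0 fell, or 12 and 0 without replicate 1, and all 22 were highest in replicate 1, at a median log2 ratio of 0.84. H2-M2, a class I molecule of little known function, had 859, 440 and 462 CPM in IL_TNF_24h against 8.76, 9.51 and 8.15 CPM in IL_24h (6.06 ± 0.28, adjusted p = 2.92e-11). H2-Q7 (3.05 ± 0.29, and 2.48 ± 0.20 without replicate 1) and H2-Q6 (2.84 ± 0.29, and 2.27 ± 0.19 without it) also rose, and reads of these near-identical copies can be misassigned between them. Of 13 MHC class II genes tested, 9 rose and 0 fell, or 7 and 0 without replicate 1. Ciita, the master regulator of class II genes, had 336, 358 and 372 CPM in IL_TNF_24h against 207, 197 and 190 CPM in IL_24h (0.84 ± 0.18, adjusted p = 0.00341). H2-Eb1, a class II chain, had 2417, 2210 and 2190 CPM in IL_TNF_24h against 635, 634 and 692 CPM in IL_24h (1.80 ± 0.21, adjusted p = 4.98e-06). For Ciita and H2-Eb1 the libraries of IL_TNF_24h lay close together, replicate 1 included.

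T cell ligands included activating and inhibiting members among the raised. Of 16 tested, 6 rose and 2 fell, with 1 fallen without replicate 1 of IL_TNF_24h or without any 1 library of IL_24h. Cd86, a costimulator of T cells, had 24.9, 6.87 and 6.72 CPM in IL_TNF_24h against 2.18, 1.97 and 1.78 CPM in IL_24h (2.69 ± 0.35, and 1.78 ± 0.14 without replicate 1). Cd40 changed by 2.27 ± 0.27 (1.64 ± 0.14 without replicate 1) and Cd274, the checkpoint ligand PD-L1, by 1.602 ± 0.25 (1.07 ± 0.16 without it). Vsir, the checkpoint molecule VISTA, fell, with a change of -0.92 ± 0.12 (adjusted p = 2.09e-05).

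**Figure D3:**
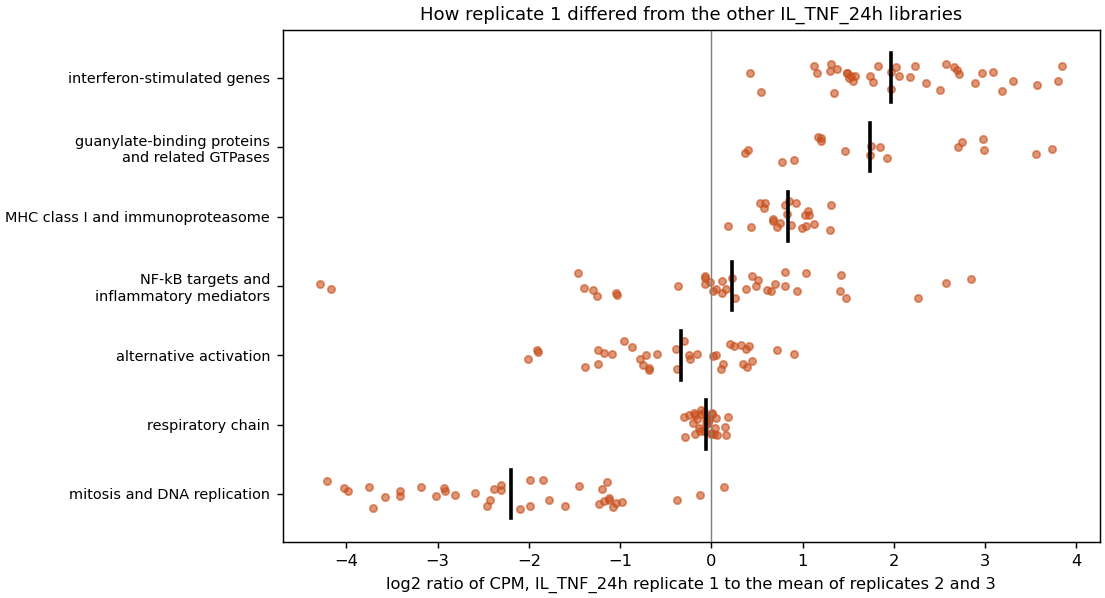
For each tested gene of 7 lists, the log2 ratio of its CPM in replicate 1 of IL_TNF_24h to the mean of replicates 2 and 3, with a bar at the median of the list. All interferon-stimulated genes lie right of 0 (median 1.97) and all but 1 of the mitosis and DNA replication genes lie left of it (median -2.20), while the respiratory chain genes lie near 0 (median -0.06).

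A part of the complement and acute-phase genes, C3 among them, rose at 24 h. Of 26 tested, 11 rose, 2 fell and 13 were not called, and 7 rose without replicate 1 of IL_24h or without its replicate 3. C3, the central complement protein, had 6686, 5778 and 5992 CPM in IL_TNF_24h against 332, 324 and 317 CPM in IL_24h (4.25 ± 0.19, adjusted p = 2.85e-11), with the groups far apart and replicate 1 near the others. Serpina3g, a protease inhibitor, had 21.2, 5.14 and 5.42 CPM in IL_TNF_24h and at most 0.445 CPM in IL_24h (5.09 ± 0.57, and 4.10 ± 0.40 without replicate 1). C1s1, a complement protease, had 29 counts in IL_TNF_24h and 0 in IL_24h, at least 11.8-fold higher against the floor, or 5.88-fold with pairs, and lost its call without replicate 1 or 3 of IL_24h (adjusted p = 0.053 and 0.051). Orm1, an acute-phase protein, had 82 counts in IL_TNF_24h and 2 in IL_24h, a ratio of 49.9 with a 95% counting interval of 13.4 to 418.7, whose lower end is 8.46 with pairs. Saa1 had 125 counts in IL_TNF_24h and 0 in IL_24h, all in replicate 3. Its call was lost without replicate 1, 2 or 3 of IL_24h (adjusted p = 0.14, 0.13 and 0.13) and with a block on the replicate number (adjusted p = 0.092), and without replicate 3 of IL_TNF_24h both groups were at 0. C5ar1, the receptor of the complement fragment C5a, fell (-1.54 ± 0.21, adjusted p = 3.82e-05).

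A part of the genes of mitosis and DNA replication fell. Of 38 tested, 14 fell, 0 rose and 24 were not called, with a median log2 fold change of -1.02, and 17 fell without replicate 1, with a median of -0.62. Replicate 1 was lower than both other libraries of IL_TNF_24h for 37 of the 38 genes. Kif23, a kinesin of cell division, had 5.74, 13.3 and 12.02 CPM in IL_TNF_24h against 31.2, 30.2 and 33.7 CPM in IL_24h (-1.61 ± 0.20, adjusted p = 1.37e-05, and -1.32 ± 0.14 without replicate 1). Ccnb2, a mitotic cyclin, had 1.44, 15.96 and 14.6 CPM in IL_TNF_24h against 32.0, 33.4 and 33.1 CPM in IL_24h (-1.62 ± 0.43, adjusted p = 0.0163, and -1.10 ± 0.15 without replicate 1, adjusted p = 3.54e-05). Plk1, a mitotic kinase, had 0.732, 12.2 and 11.6 CPM in IL_TNF_24h against 23.6, 23.2 and 23.6 CPM in IL_24h (-1.52 ± 0.48, adjusted p = 0.0457, and -0.98 ± 0.18 without replicate 1, adjusted p = 0.00137). The change of Plk1 was thus smaller without replicate 1, and so was its p. The calls were uneven across libraries, with 8, 6 and 8 members lowered without replicate 1, 2 or 3 of IL_24h, where Plk1 (adjusted p = 0.12, 0.11 and 0.11) and Cenpf (adjusted p = 0.086, 0.097 and 0.072) lost their calls and Ccnb2 did without replicate 2 (adjusted p = 0.053), and 22 lowered without replicate 2 of IL_TNF_24h. A fit of these groups alone called none of Plk1 (adjusted p = 0.216), Cenpf (adjusted p = 0.178) and Ccnb2 (adjusted p = 0.149). Plk1 was not called by the Wald test of DESeq2 (adjusted p = 0.0536) or with a block on the replicate number (adjusted p = 0.0587) either. In bulk RNA, fewer dividing cells and less of these transcripts per cell cannot be told apart.

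**Figure D4:**
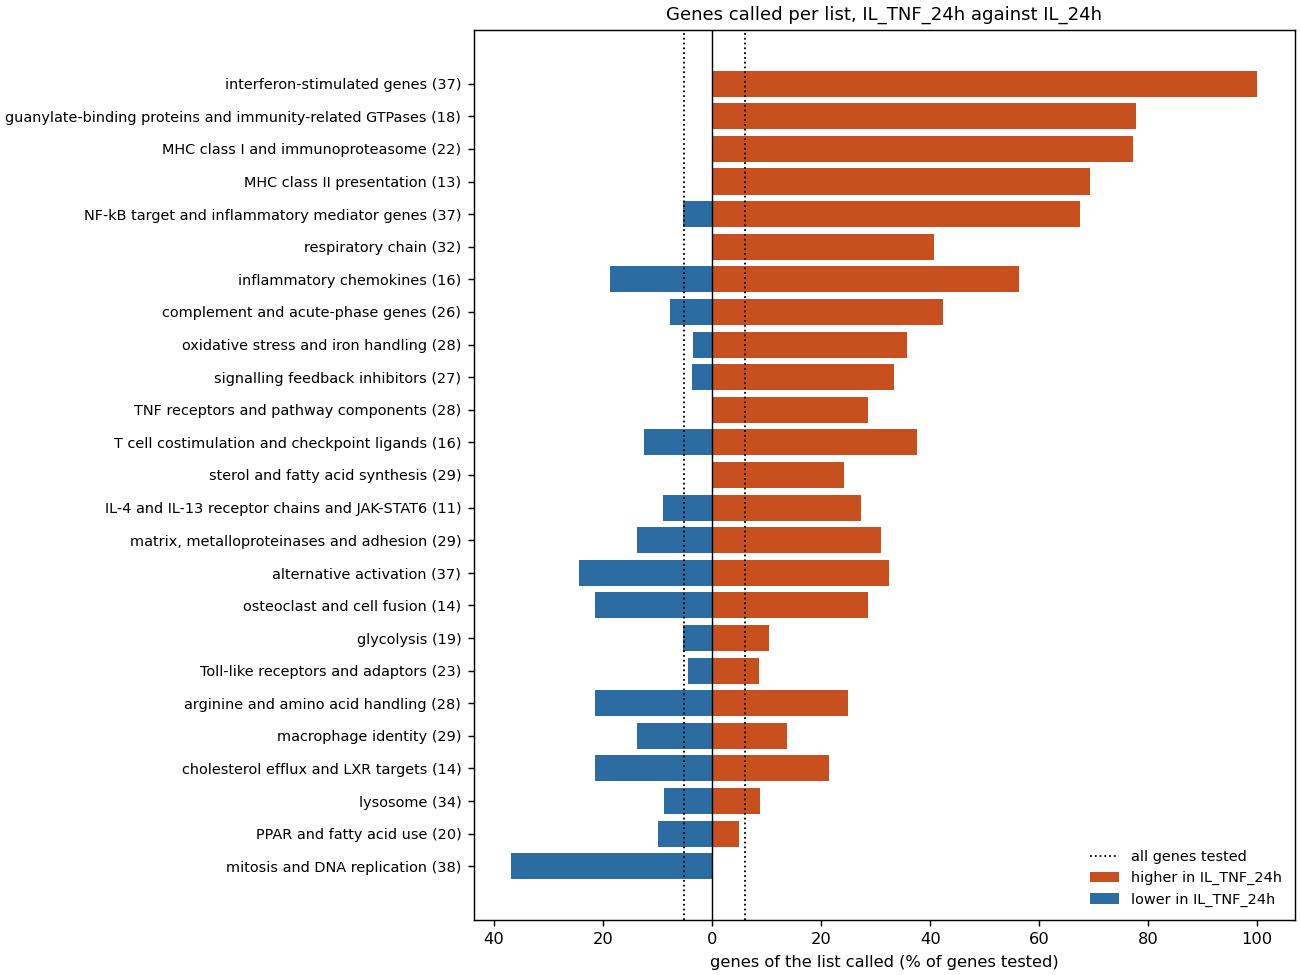
Share of the tested genes of each of 25 lists called raised (orange, right) and lowered (blue, left) in IL_TNF_24h against IL_24h, with the number tested in brackets. Dotted lines mark the shares over all genes tested, 6.03% raised and 5.08% lowered. Interferon-stimulated genes are raised in 100% and mitosis and DNA replication genes are lowered in 36.8%.

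Among metabolic genes, many of the respiratory chain rose by small amounts. Of 32 respiratory chain genes tested, 13 rose and 0 fell, with a median log2 fold change of 0.42, and 10 rose without replicate 1. Cox5a, a subunit of cytochrome c oxidase, had 78.3, 85.1 and 75.4 CPM in IL_TNF_24h against 50.2, 46.9 and 48.3 CPM in IL_24h (0.72 ± 0.15, adjusted p = 0.00292). Cycs, cytochrome c, had 158, 134 and 148 CPM in IL_TNF_24h against 93.1, 98.3 and 105 CPM in IL_24h (0.57 ± 0.12, adjusted p = 0.00271). The raised count was 5, 7 and 6 without replicate 1 of IL_24h, replicate 2 of IL_24h and replicate 3 of IL_TNF_24h, and 27 in a fit of these groups alone. Replicate 1 of IL_TNF_24h did not stand apart in this list, at a median log2 ratio of -0.06. Of 29 sterol and fatty acid synthesis genes tested, 7 rose and 0 fell, led by Mvd, a mevalonate pathway enzyme (1.04 ± 0.20, adjusted p = 0.00139), and 4 rose without replicate 3 of IL_TNF_24h. Scd1, a fatty acid desaturase, had 25.3, 31.7 and 31.6 CPM in IL_TNF_24h against 15.5, 17.1 and 17.0 CPM in IL_24h (0.83 ± 0.19, adjusted p = 0.00515). Abca1, the cholesterol exporter, rose as well (1.17 ± 0.17, adjusted p = 5.66e-05), among 3 raised and 3 lowered of 14 cholesterol efflux and LXR targets tested. Of 19 glycolysis genes tested, 2 rose and 1 fell, and of 34 lysosome genes 3 rose and 3 fell, or 1 and 4 without replicate 1, shares near those of all genes. Ctsd, the protease cathepsin D, was among the fallen, with 5271, 3905 and 3956 CPM in IL_TNF_24h against 7154, 7068 and 7321 CPM in IL_24h (-0.71 ± 0.13, adjusted p = 0.000946). Of 20 PPAR and fatty acid use genes, 1 rose (5%) and 2 fell (10%), against 6.03% and 5.08% of all genes. Without replicate 1 the counts were 1 and 5. Fabp4, a fatty acid carrier, changed by -0.85 ± 0.22 (adjusted p = 0.0163) and by -1.34 ± 0.16 without replicate 1. Fabp4 lost its call without replicate 2 or 3 of either group (adjusted p between 0.055 and 0.10), when the lowered count of the list was 1, and in a fit of these groups alone (adjusted p = 0.112).

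Arginine and amino acid genes moved in both directions, with 7 raised (25%) and 6 lowered (21.4%) of 28 tested, against 6.03% and 5.08% of all genes. Ass1, which remakes arginine from citrulline, had 127, 147 and 158 CPM in IL_TNF_24h against 13.2, 10.7 and 12.5 CPM in IL_24h (3.57 ± 0.16, adjusted p = 2.85e-11). Kynu, an enzyme of tryptophan breakdown, had 36.1, 27.9 and 26.7 CPM in IL_TNF_24h against 2.47, 2.13 and 2.27 CPM in IL_24h (3.72 ± 0.29, adjusted p = 2.57e-08). Phgdh and Psat1 of serine synthesis fell. Phgdh, the first enzyme of serine synthesis, had 5.12, 6.68 and 5.97 CPM in IL_TNF_24h against 23.7, 25.4 and 26.1 CPM in IL_24h (-2.08 ± 0.14, adjusted p = 5.07e-09). Psat1, the next enzyme of that route, had 11.6, 24.9 and 25.9 CPM in IL_TNF_24h against 41.0, 44.4 and 51.3 CPM in IL_24h (-1.13 ± 0.21, adjusted p = 0.000846). Asns, which makes asparagine, fell as well (-0.94 ± 0.11, adjusted p = 5.87e-06).

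Of 28 oxidative stress and iron genes tested, 10 rose (35.7%) and 1 fell (3.57%), against 6.03% and 5.08% of all genes. Cp, the ferroxidase ceruloplasmin, had 18.9, 10.4 and 10.9 CPM in IL_TNF_24h and at most 0.951 CPM in IL_24h (4.13 ± 0.32, adjusted p = 2.05e-08). Slc7a11, the cystine transporter that feeds glutathione synthesis, had 75.5, 95.6 and 98.7 CPM in IL_TNF_24h against 12.4, 12.2 and 10.6 CPM in IL_24h (2.94 ± 0.21, adjusted p = 6.53e-09). Nqo1, a quinone reductase, changed by 1.78 ± 0.22 (adjusted p = 1.02e-05). In these genes replicate 1 was the highest for Cp and the lowest for Slc7a11 and Nqo1.

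Macrophage identity genes gave 4 raised and 4 lowered of 29 tested, 13.8% each, against 6.03% and 5.08% of all genes. Without replicate 1 the counts were 4 and 8, when 4.50% and 3.92% of all genes were called. Msr1, a scavenger receptor, had 226, 229 and 263 CPM in IL_TNF_24h against 93.8, 109 and 106 CPM in IL_24h (1.22 ± 0.12, adjusted p = 8.83e-07). Cd163, the haemoglobin scavenger receptor, had 2.76, 10.3 and 11.2 CPM in IL_TNF_24h against 31.4, 33.4 and 29.2 CPM in IL_24h (-1.94 ± 0.34, adjusted p = 0.000498, and -1.53 ± 0.23 without replicate 1). Maf, a transcription factor of resident macrophages, had 48.8, 25.8 and 24.4 CPM in IL_TNF_24h against 74.0, 67.9 and 63.6 CPM in IL_24h (-1.06 ± 0.20, adjusted p = 0.00101). Outside this list, Apoe, apolipoprotein E, of the cholesterol efflux and LXR targets, had 1147, 528 and 564 CPM in IL_TNF_24h against 1094, 1081 and 1237 CPM in IL_24h. It was not called with all libraries (-0.61 ± 0.26, adjusted p = 0.177) and fell without replicate 1 (-1.05 ± 0.24, adjusted p = 0.00657). The raised count of the macrophage identity list was 2 without replicate 2 or 3 of IL_24h.

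Of 29 matrix, metalloproteinase and adhesion genes tested, 9 rose and 4 fell, or 10 and 4 without replicate 1. Besides Mmp9, Mmp14 and Vcam1, the membrane-anchored metalloproteinase Mmp25 rose (5.14 ± 1.02, adjusted p = 0.00163), while Timp2, an inhibitor of these enzymes, had 281, 361 and 313 CPM in IL_TNF_24h against 626, 599 and 532 CPM in IL_24h (-0.88 ± 0.12, adjusted p = 3.42e-05). Of 14 osteoclast and cell fusion genes tested, 4 rose and 3 fell, with 1 fallen without any 1 library of IL_24h. Dcstamp, which macrophages need to fuse, had 138, 182 and 197 CPM in IL_TNF_24h against 76.8, 74.5 and 81.0 CPM in IL_24h (1.16 ± 0.15, adjusted p = 1.99e-05). Of 23 Toll-like receptors and adaptors tested, 2 rose and 1 fell, or 1 and 0 without replicate 1, near the shares of all genes. Tlr2, a receptor for bacterial lipoproteins, was among the raised (1.27 ± 0.12, adjusted p = 2.3e-07).

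Beyond these lists, the 15 raised genes named by rule also held Lad1, a filament-anchoring protein (5.80 ± 0.45, adjusted p = 2.41e-08), and Apol7c of the apolipoprotein L family (4.99 ± 0.33, adjusted p = 4.52e-09). Spint2, a serine protease inhibitor, had 16.3, 13.3 and 11.8 CPM in IL_TNF_24h against 0.428, 0.351 and 0.660 CPM in IL_24h (4.82 ± 0.25, adjusted p = 9.46e-11). Ccr7, the receptor that guides dendritic cells to lymph nodes, had 18.4, 9.28 and 12.7 CPM in IL_TNF_24h against 0.487, 0.539 and 0.640 CPM in IL_24h (4.59 ± 0.69, adjusted p = 0.000112). Ms4a4c had 55.9, 3.29 and 3.17 CPM in IL_TNF_24h against 0.759, 0.305 and 1.01 CPM in IL_24h, so most of its change of 4.87 ± 0.84 lay in replicate 1 (2.20 ± 0.31 without it). Apol7c, Serpina3g, Ms4a4c and Ear2 belong to families of close copies, among which reads can be split.

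The 15 lowered genes named by rule held, beside Retnla, Ear2, Fn1 and Phgdh, the following. Scn3a, a sodium channel subunit, had 1.49, 1.59 and 1.64 CPM in IL_TNF_24h against 13.8, 17.4 and 12.1 CPM in IL_24h (-3.19 ± 0.34, adjusted p = 9.88e-06). Cd5l, a secreted protein of tissue macrophages, had 11.7, 6.66 and 7.69 CPM in IL_TNF_24h against 52.1, 61.7 and 64.3 CPM in IL_24h (-2.78 ± 0.17, adjusted p = 1.31e-09). Dab2, an endocytic adaptor, had 31.9, 30.9 and 30.9 CPM in IL_TNF_24h against 171, 181 and 157 CPM in IL_24h (-2.44 ± 0.18, adjusted p = 9.42e-09). For these 3 genes all libraries with TNF lay far below all libraries without it. Rasgrp3, an activator of Ras proteins, changed by -2.38 ± 0.15 (adjusted p = 1.83e-09), Hmga2, a chromatin protein, by -2.61 ± 0.25 (adjusted p = 3.69e-07), and Qpct, a glutaminyl cyclase, by -2.35 ± 0.19 (adjusted p = 3.63e-08). Cd300lg, Nes, Ramp1, Rnase4 and Fat3 were lowest in replicate 1. Nes, the intermediate filament protein nestin, had 3.18, 24.9 and 26.7 CPM in IL_TNF_24h against 77.1, 76.5 and 87.0 CPM in IL_24h (-2.13 ± 0.42, adjusted p = 0.00151, and -1.63 ± 0.16 without replicate 1, adjusted p = 1.42e-06). Fat3, an atypical cadherin (-2.06 ± 0.58, adjusted p = 0.0249), lost its call without any 1 of the IL_24h libraries (adjusted p between 0.062 and 0.083) and in a fit of these groups alone (adjusted p = 0.0973), which did not call Nes either (adjusted p = 0.0567).

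The 6 h comparison shows which of these effects were already there. TNF raised 1105 genes and lowered 1088 at 6 h, 14.1% of those tested, 7.09% raised and 6.98% lowered, and the counts were 1059 and 1048 without replicate 2 of IL_6h, and 1036 and 932 without replicate 3 of IL_TNF_6h. Of 547 genes raised at least 2-fold at 6 h, 351 were raised at 24 h (64.2%) and 4 lowered, and these 351 are 37.3% of the genes raised at 24 h. Of 385 genes lowered at least 2-fold at 6 h, 179 were lowered at 24 h (46.5%) and 4 raised, and these 179 are 22.6% of the genes lowered at 24 h. The 6 h and 24 h libraries differ in more than time: Xist, which coats the silenced X chromosome of female cells, was at most 0.145 CPM in IL_TNF_24h and 0.136 CPM in IL_24h but at least 660 CPM in IL_TNF_6h and 562 CPM in IL_6h. Ddx3y, a Y chromosome gene, was at least 41.8 CPM in IL_TNF_24h and 44.0 CPM in IL_24h and had 0 counts in both groups at 6 h. Each effect of TNF was measured within its own time, so a level that differs between the times cancels, but a response that differs with the sex or source of the cells cannot be told apart from one that differs with time.

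The effect at 24 h differed from that at 6 h for 573 genes, 3.68% of those tested, with a higher effect at 24 h for 295 (1.89%) and a lower one for 278 (1.78%). The higher count fell to between 177 and 193 without replicate 1 or 3 of IL_6h, replicate 2 of IL_TNF_6h or any 1 library of IL_24h, and the lower count to between 166 and 171 without replicate 3 of IL_6h or replicate 1 or 3 of IL_24h. Ccl5 changed by 5.73 ± 0.27 at 24 h and by 1.57 ± 0.23 at 6 h, a difference of 4.15 ± 0.33 (adjusted p = 3.6e-07). Ccl24 changed by 3.22 ± 0.30 at 24 h and by -0.08 ± 0.32 at 6 h, when it was not called, a difference of 3.30 ± 0.43 (adjusted p = 9.56e-05). C3 (2.39 ± 0.24, adjusted p = 6.22e-06), H2-M2 (2.54 ± 0.33, adjusted p = 8.25e-05), Ass1 (2.63 ± 0.21, adjusted p = 3.6e-07) and Kynu (2.94 ± 0.39, adjusted p = 0.000111) likewise had a higher effect at 24 h. Respiratory chain genes had 0 raised and 0 lowered of 32 at 6 h, against 7.09% and 6.98% of all genes. Of the 32, 3 had a higher effect at 24 h, against 1.89% of all genes, and the others were not shown to differ between the times. Uqcrfs1, 1 of these 3, lost that call under 13 of 19 alternatives.

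Tnf was called at 6 h and not at 24 h. It averaged 212 ± 12.9 CPM in IL_TNF_6h and 26.9 ± 3.76 CPM in IL_6h (SD, n = 3 each), a change of 2.98 ± 0.16, and the difference of the effects was -2.79 ± 0.21 (adjusted p = 2.34e-07). Ccl2 fell at 24 h and was not called at 6 h (0.30 ± 0.13), a difference of -1.605 ± 0.19 (adjusted p = 4.51e-05). Arg1 averaged 65.0 ± 5.35 CPM in IL_TNF_6h and 248 ± 20.1 CPM in IL_6h, a change of -1.93 ± 0.23, and the effect at 24 h was higher by 1.36 ± 0.31 (adjusted p = 0.0168). This difference lost its call without replicate 3 of IL_6h, replicate 2 of IL_TNF_6h, replicate 1 of IL_24h, or replicate 2 or 3 of IL_TNF_24h (adjusted p between 0.051 and 0.073). Retnla (-4.18 ± 0.45 at 6 h) and Mrc1 (-0.76 ± 0.15 at 6 h) fell at both times and their effects were not shown to differ (adjusted p = 0.759 and 0.91). Cd5l (-0.06 ± 0.16 at 6 h, not called) and Phgdh (0.50 ± 0.13 at 6 h, raised) had a lower effect at 24 h. The difference was -2.72 ± 0.23 for Cd5l (adjusted p = 6.52e-07) and -2.58 ± 0.19 for Phgdh (adjusted p = 2.34e-07).

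**Figure D5:**
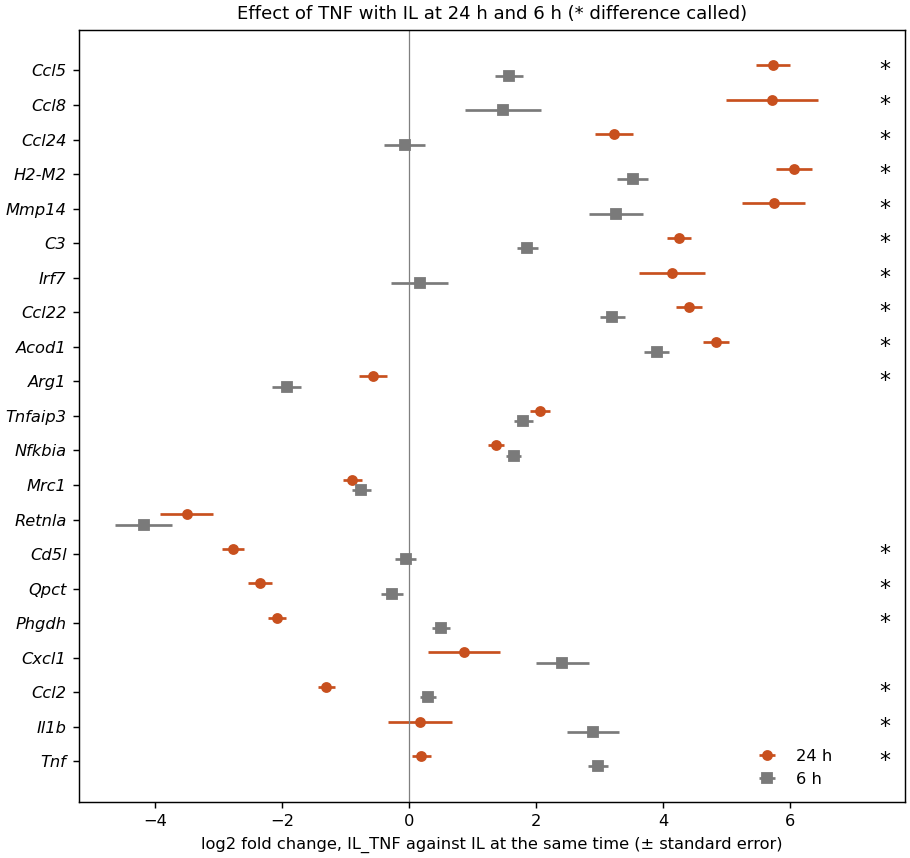
Log2 fold change ± SE of IL_TNF against IL at 24 h (orange circles) and at 6 h (grey squares) for 21 genes, with an asterisk where the difference between the times was called. Ccl24 (3.22 and -0.08) and Cd5l (-2.78 and -0.06) changed at 24 h and were not called at 6 h, whereas Tnf (0.19 and 2.98) was called at 6 h alone.

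TNF alone at 24 h, against Ctrl_0h, raised 3258 genes and lowered 3796, 45.3% of those tested, 20.9% raised and 24.4% lowered, a comparison that also holds 24 h in culture. The counts were 2947 and 3006 without replicate 2 of Ctrl_0h, and 2715 and 2987 without replicate 3 of TNF_24h. Of 1569 genes it raised at least 2-fold, 567 were raised by TNF in the presence of IL-4 and IL-13 (36.1% of these, and 60.3% of all genes raised) and 21 lowered. Of 2101 genes it lowered at least 2-fold, 322 were lowered (15.3% of these, and 40.7% of all genes lowered) and 32 raised. The effect with IL-4 and IL-13 differed from that without for 3758 genes, 24.1% of those tested, higher for 1812 (11.6%) and lower for 1946 (12.5%). The higher count was 1043 without replicate 2 of IL_24h. The libraries of TNF_24h and Ctrl_0h had at least 216 CPM of Xist and 0 counts of Ddx3y, so here too the source of the cells cannot be told apart from the presence of the cytokines.

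Some NF-kB targets had a smaller effect of TNF in the presence of IL-4 and IL-13. Acod1 averaged 1514 ± 165 CPM in TNF_24h and 1.07 ± 0.04 CPM in Ctrl_0h (SD, n = 3 each), and the effect with IL-4 and IL-13 minus that without was -5.64 ± 0.29 (adjusted p = 3.15e-10). Cxcl10 averaged 2892 ± 297 CPM in TNF_24h and 5.07 ± 2.20 CPM in Ctrl_0h, a difference of -4.96 ± 1.06 (adjusted p = 0.00198). Tnf averaged 420 ± 49.0 CPM in TNF_24h and 26.4 ± 3.90 CPM in Ctrl_0h, a difference of -3.80 ± 0.22 (adjusted p = 1.06e-09). For Acod1 the groups without TNF differed too, with 9.02 to 10.2 CPM in IL_24h against 1.07 CPM in Ctrl_0h. Nos2 averaged 45.0 ± 10.2 CPM in TNF_24h, near replicates 2 and 3 of IL_TNF_24h, and its effect was not shown to differ (0.81 ± 1.24, adjusted p = 0.674). Ccr7 was not raised by TNF alone (0.72 ± 0.85) and had a higher effect with IL-4 and IL-13, by 3.87 ± 1.10 (adjusted p = 0.0158). Ccl22 averaged 32.2 ± 1.22 CPM in TNF_24h, against 38.5 ± 1.27 CPM in IL_24h and 813 ± 80.2 CPM in IL_TNF_24h, so its level was highest in IL_TNF_24h among these groups.

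Genes that IL-4 and IL-13 change were also examined through IL_6h against Ctrl_0h, which shares no library with the 24 h comparison. IL_6h and Ctrl_0h may also differ in the source of the cells, since Ifi202b, an interferon-inducible gene known to vary between mouse strains, had 30.3 to 51.3 CPM in IL_6h and 0 counts in Ctrl_0h. It called 64.5% of genes tested, 32.8% raised and 31.6% lowered, with 5161 and 4452 genes without replicate 2 of Ctrl_0h and 4889 and 4261 without replicate 2 of IL_6h, against 5117 and 4926 with all libraries. Of 3048 genes it raised at least 2-fold, TNF at 24 h raised 344 (11.3%) and lowered 126 (4.13%), against 6.03% and 5.08% of all genes. Of 3079 genes it lowered at least 2-fold, TNF raised 83 (2.70%) and lowered 243 (7.89%).

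The labelled cell type was checked against its markers. The 10 macrophage markers summed to between 14850 and 16220 CPM in IL_TNF_24h and between 14090 and 14980 CPM in IL_24h, and 1 of them was called raised and 0 lowered, or 0 raised and 2 lowered without replicate 1. Markers of other cell types summed to little, except the dendritic cell list, with 288 to 654 CPM in IL_TNF_24h and 168 to 184 CPM in IL_24h. Most of that sum was Bst2 (100 to 566 CPM over the 6 libraries) and Batf3 (50.1 to 73.7 CPM). Of the 9 genes tested in the dendritic cell list 4 rose, namely Bst2, which interferon also raises, Ccr7, Fscn1 and Clec9a. Clec9a lost its call without replicate 3 of IL_24h (adjusted p = 0.0517). The other 5 were not called, with changes below 0 for Flt3 (-0.61), Itgae (-0.68) and Batf3 (-0.21) and above 0 for Zbtb46 (2.19) and Xcr1 (2.44). Siglech was at 0 in all 6 libraries. Neutrophil markers summed to 15.3 to 18.3 CPM in IL_TNF_24h and 7.10 to 7.67 CPM in IL_24h, nearly all of it Mmp8, with Ly6g, Elane, Mpo, Prtn3 and Retnlg at 0. Erythroid and megakaryocyte markers summed to 13.1 to 22.7 CPM in IL_TNF_24h and 6.68 to 7.76 CPM in IL_24h, mostly the chemokine gene Pf4. Fibroblast markers summed to at most 4.57 CPM in IL_TNF_24h and 2.17 CPM in IL_24h, and T and NK cell markers to at most 3.32 and 1.11 CPM with Cd3d, Cd3e and Cd3g at 0. B cell markers summed to at most 1.44 CPM in IL_TNF_24h and 4.38 CPM in IL_24h with Ms4a1 at 0, and eosinophil, mast cell and basophil markers to at most 6.80 and 13.3 CPM with Mcpt8 and Fcer1a at 0. The part of the dendritic cell genes in the rise of Ccr7 and of MHC class II genes was not tested.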

How the data were processed

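Total RNA of macrophages was extracted with Trizol, per the labels' protocols, and the table deposited by the authors holds raw gene counts of 21 libraries, 7 groups of 3. Build GRCm38 is named in the submitters' processing notes, together with edgeR 3.28.1, Subread 1.6.3 with its counter featureCounts, and TopHat2 2.0.12. In the deposited counts the value 2 occurs 30373 times and the value 1 17808 times, so single counts are rarer than pairs, and the cause was not tested. Counting intervals and floors take each count as 1 fragment unless pairs are named. The strand of counting is not given in the sources used here, so reads of overlapping and antisense genes cannot be told apart, and close copies (Ear2, Serpina3g, Apol7c, Ms4a4c, Chil3, H2-Q and Gbp genes) can share reads.

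Of 47069 identifiers, 32832 received a symbol from the files or the RefSeq table of GRCm38.p6, which also gave positions and promoters. Genes were filtered by group with filterByExpr, libraries scaled with TMM, and all 21 libraries fitted with 1 term per group in edgeR 4.0.16 (R 4.3.3, quasi-likelihood F test, Benjamini-Hochberg adjustment, threshold 0.05). The biological coefficient of variation was 22.8%. SE is the log2 fold change divided by the square root of F. Differences between effects are contrasts of the same fit. Counting intervals cover counting error only, at 95%, and the floor is 3 counts over a group. DESeq2 1.42.0, other filters and scalings, a fit of the compared groups alone, a block on the replicate number and leaving out each library were run as alternatives. The script was tested on simulated data.

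Members and gene lists were chosen with earlier results of these data known. The text names the 15 raised and 15 lowered genes of largest change called with and without replicate 1 of IL_TNF_24h, if the groups did not overlap and the higher one averaged at least 10 CPM, the 5 genes in each direction that differ most in that replicate, a set of known markers, and up to 4 called genes per list. Asns, Bst2, C3, C5ar1, Ccl2, Ccl4, Cd274, Clec10a, Clec9a, Fscn1, Il1a, Mmp8, Pf4, Psat1, Timp2, Vsir, and the set markers Xist, Ddx3y and Ifi202b, were named after their values were seen. Of 701 genes in lists, 11 had no match.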

Additional observations from a re-analysis of the deposited data

Results flagged for a closer look

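For 47 genes named by rule or after their values were seen, the effect of TNF in the presence of IL-4 and IL-13 differed between 24 h and 6 h by a test of the difference itself in edgeR. All values are the log2 effect at 24 h minus that at 6 h, and the 24 h and 6 h libraries also differ in Xist and Ddx3y, so time and the source of the cells cannot be told apart. The call was kept by 30 of these genes under every alternative run for them, and 17 lost it under some.

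Of the 30, 18 had a higher effect at 24 h. They were the chemokine genes Ccl8 (4.23), Ccl5 (4.15), Ccl24 (3.30) and Ccl22 (1.20), the protease inhibitors Serpina3g (3.76) and Spint2 (2.24), the genes Irf7 (3.98), Cd86 (2.735), H2-M2 (2.54), C3 (2.39), Mmp8 (1.52), Ifi30 (1.35) and Clec10a (1.17), and the metabolic genes Kynu (2.94), Ass1 (2.63), Scd1 (1.83), Scd2 (1.82) and Slc7a11 (1.66). The other 12 had a lower effect at 24 h, namely Tnf (-2.79), Cd5l (-2.72), Phgdh (-2.58), Qpct (-2.08), Ccl4 (-1.785), Ccl2 (-1.605), Maf (-1.39), C5ar1 (-1.35), Asns (-1.30), Apoc2 (-1.29), Tlr2 (-1.21) and Dab2 (-1.16). A higher effect can be a smaller fall, and a lower one a smaller rise. Clec10a fell at 24 h (log2 fold change -1.29), and Tlr2 rose at 24 h (log2 fold change 1.27). Without replicate 1 of IL_TNF_24h the difference between the times was 2.80 for Ccl8, 2.76 for Serpina3g, 2.46 for Irf7 and 1.82 for Cd86.

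Of the 17 others, Pfkp (0.72) lost its call with no filter on low counts, and 16 lost it when some single library was left out. Ccr7 (3.81) lost it without any 1 of the 12 libraries. Acod1 (0.93) and Ifi44 (2.74, or 1.24 without replicate 1 of IL_TNF_24h) lost it without any 1 library of IL_6h, IL_TNF_6h or IL_24h, and Pdcd1lg2 (1.83) without any of those or replicate 1 of IL_TNF_24h. Tnfrsf1b (-0.60) lost it without any 1 of 10 libraries, all but replicate 3 of IL_TNF_6h and replicate 1 of IL_TNF_24h, and Hp (3.45) and Uqcrfs1 (0.56) without the same 10. Gbp11 (7.24, a fitted value with 0 counts in IL_24h) lost it without replicate 1 or 2 of IL_6h, any 1 of IL_TNF_6h or IL_24h, or replicate 1 of IL_TNF_24h. Cp (1.59) lost it without replicate 2 or 3 of IL_6h, 1 or 2 of IL_TNF_6h, 1 or 2 of IL_24h or 1 of IL_TNF_24h. Arg1 (1.36) lost it without replicate 3 of IL_6h, 2 of IL_TNF_6h, 1 of IL_24h or 2 or 3 of IL_TNF_24h. Nqo1 (1.32) lost it without replicate 3 of IL_6h, 2 of IL_TNF_6h, or 2 or 3 of IL_24h or IL_TNF_24h. H2-Q7 (1.625) lost it without replicate 1 or 3 of IL_6h, 3 of IL_TNF_6h or 1 or 3 of IL_24h. Hmga2 (-1.31) lost it without replicate 1 or 3 of IL_6h, 3 of IL_TNF_6h, any of IL_24h, or 1 or 2 of IL_TNF_24h. Mmp14 (2.48) lost it without replicate 1 or 3 of IL_6h, 3 of IL_TNF_6h or any of IL_24h. Il1b (-2.73) lost it without replicate 1 or 3 of IL_6h, 1 of IL_24h or 2 of IL_TNF_24h, and was -3.79 without replicate 3 of IL_TNF_24h. Ms4a4c (4.45) lost it without replicate 1 or 2 of IL_TNF_6h or of IL_24h, and its value was 1.77 without replicate 1 of IL_TNF_24h.

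A fit of the compared groups alone also ended the calls of Acod1 (adjusted p = 0.121), Hmga2 (adjusted p = 0.0705), Ms4a4c (adjusted p = 0.0848), Gbp11, H2-Q7, Ifi44 and Uqcrfs1. A block on the replicate number ended those of Gbp11, Ifi44 and Uqcrfs1, and no filter those of Tnfrsf1b (adjusted p = 0.413) and Uqcrfs1.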

How the results depend on the processing

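The number of genes raised at 24 h lay between 665 and 1141, and that of lowered genes between 508 and 1008, when 1 library was left out. The highest of both came without replicate 2 of Ctrl_0h, which is in neither group, and without 1 of the 6 libraries compared they did not exceed 855 and 667. Under the other alternatives the counts lay between 933 and 1305 raised and between 819 and 1123 lowered. Without replicate 1 of IL_TNF_24h, a fit of these groups alone, added after seeing the data, raised 2130 and lowered 2080 genes. For the effect at 24 h minus that at 6 h, the Wald test of DESeq2 gave 465 higher and 422 lower, and leaving out 1 library gave 177 to 409 higher and 166 to 361 lower. For the effect with IL-4 and IL-13 minus that without, leaving out 1 library gave 1043 to 1895 higher. When 1 library was left out, the change of Il1b lay between -0.90 and 0.63, below 0 without replicate 3 of IL_24h (-0.065) or of IL_TNF_24h (-0.90), and that of Saa1 between 0 (without replicate 3 of IL_TNF_24h) and 8.83. The causes were not tested. Over the changes of the named genes at 24 h, leaving out 1 library removed a call in 62 cases, gave one in 6 and turned a sign in 3, against 958 with none of these, and the other alternatives removed 19 and gave 13, against 830. Over their called differences between 24 h and 6 h, leaving out 1 library removed a call in 124 cases, against 487 kept, and the other alternatives in 13, against 265. A fit of these groups alone also lost Ifit3 (adjusted p = 0.0541) and Slfn1 (adjusted p = 0.0529).

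The replicate numbers did not pair the 24 h libraries, with correlations of 0.002, 0.013 and 0.013 between same-numbered libraries. At 6 h the same-numbered correlations were 0.363, -0.31 and -0.269. Replicate 3 of IL_TNF_6h and replicate 2 of IL_6h, which each stood apart, correlated at 0.58. The 6 h libraries were fitted as unpaired, and whether they are linked across numbers was not tested. A block on the replicate number gave 933 raised and 819 lowered genes at 24 h, 292 higher and 273 lower for the difference between times, and 1683 higher and 1927 lower for the difference with and without IL-4 and IL-13. Genes with few counts limit the folds given as bounds.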
